A study of Caenorhabditis elegans with 2 samples.

Results

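The binding of the GATA factor ELT-2 was examined at 9 Caenorhabditis elegans genes, out of 19973 nuclear coding genes. Of the 9, sams-1, sams-3, sams-4, sams-5, metr-1, mtrr-1, pmt-1 and pmt-2 serve the methionine cycle or phosphatidylcholine synthesis. The remaining gene, mmcm-1, serves the vitamin B12-dependent breakdown of propionate, outside both pathways. The 9 genes were chosen by name from their biochemical roles, but with earlier results of these data known. All 9 symbols matched the WBcel235 annotation. For each gene, ChIP-seq peak summits were counted in a window that reached from 2000 bp before to 500 bp after any transcript start of the gene, and a gene with at least 1 summit there is called bound. The data came from whole hermaphrodites at the L3 larval stage, collected 40 hours after L1 animals starved since bleaching were synchronized. The strain, OP56, has the genotype unc-119(ed3) III; wgIs56, in which wgIs56 is a stably expressed transgene for ELT-2 carrying a C-terminal GFP-FLAG tag. For ChIP-seq, chromatin was precipitated with an antibody against GFP, according to the description of the samples. The sample characteristics instead name the antibody as elt-2, and this conflict was not resolved here. Both samples, biological replicates 1 and 2, formed 1 group, so no conditions were compared. Because whole animals were used, the peaks do not show in which cells ELT-2 bound.

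ELT-2 is the main GATA factor of the differentiated worm intestine and recognizes TGATAA. The intestine is also the chief site of lipid metabolism in the worm. In the methionine cycle, methionine synthase remakes methionine from homocysteine with a vitamin B12 cofactor, and S-adenosylmethionine synthetases turn methionine into S-adenosylmethionine, the methyl donor of the cell. Worms spend much of this donor on phosphocholine, which the PMT enzymes make by methylating phosphoethanolamine and which then enters phosphatidylcholine. Loss of sams-1 is known to lower phosphatidylcholine and to switch on lipid synthesis through the SREBP homologue SBP-1.

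The sequences at the summits on which the results turn are shown first, because they let the GATA sites be read directly. Each line gives 201 bases centred on a summit, from the ce11 (WBcel235) genome, on the coding strand of the named gene. Capitals mark TGATAA, or its reverse complement TTATCA. At the proximal summit of sams-1, which has no TGATAA, they mark AGATAA and AGATAG. The sequence shared by sams-3 and sams-4 has no capitals because none of these sites was found in it. The first 4 lines are the strongest summits of the 4 genes with strong binding, and the last 3 show a strong summit without the core site and 2 weak ones.
pmt-1, chrII:5281271-5281471, minus strand: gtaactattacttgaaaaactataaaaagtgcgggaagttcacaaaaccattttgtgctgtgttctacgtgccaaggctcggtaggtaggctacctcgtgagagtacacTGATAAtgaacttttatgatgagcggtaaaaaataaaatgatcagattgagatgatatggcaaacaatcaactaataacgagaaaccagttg
metr-1, chrII:10924748-10924948, plus strand: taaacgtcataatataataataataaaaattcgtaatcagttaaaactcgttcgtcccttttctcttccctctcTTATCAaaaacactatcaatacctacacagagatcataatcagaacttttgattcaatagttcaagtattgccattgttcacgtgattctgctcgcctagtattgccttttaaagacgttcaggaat
mtrr-1, chrII:9284102-9284302, plus strand: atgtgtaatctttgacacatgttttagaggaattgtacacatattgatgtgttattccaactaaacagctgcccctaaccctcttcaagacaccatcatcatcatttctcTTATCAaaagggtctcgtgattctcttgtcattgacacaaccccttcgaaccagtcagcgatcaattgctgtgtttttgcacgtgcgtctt
sams-1, distal summit, chrX:11964639-11964839, plus strand: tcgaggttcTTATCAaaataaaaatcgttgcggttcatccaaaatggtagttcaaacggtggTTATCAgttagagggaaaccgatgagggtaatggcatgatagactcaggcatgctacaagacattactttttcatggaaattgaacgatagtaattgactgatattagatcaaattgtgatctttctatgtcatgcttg
sams-1, proximal summit, chrX:11965744-11965944, plus strand: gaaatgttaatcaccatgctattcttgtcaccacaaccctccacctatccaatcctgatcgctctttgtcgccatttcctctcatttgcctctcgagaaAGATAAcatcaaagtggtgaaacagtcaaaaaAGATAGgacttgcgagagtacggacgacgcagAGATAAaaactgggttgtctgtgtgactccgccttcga
pmt-2, chrV:4628558-4628758, plus strand: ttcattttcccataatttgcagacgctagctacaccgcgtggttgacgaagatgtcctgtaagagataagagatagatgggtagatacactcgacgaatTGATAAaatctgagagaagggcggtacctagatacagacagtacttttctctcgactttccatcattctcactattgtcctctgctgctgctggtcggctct
sams-3 and sams-4, shared summit, chrIV:5848107-5848307, plus strand: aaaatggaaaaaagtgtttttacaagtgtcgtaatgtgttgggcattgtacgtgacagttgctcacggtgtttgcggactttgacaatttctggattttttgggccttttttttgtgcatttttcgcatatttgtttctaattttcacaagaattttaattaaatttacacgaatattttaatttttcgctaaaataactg

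Of the 9 genes, 8 were bound, against 32.1% of all nuclear coding genes under the same rule. Because the genes were chosen with earlier results of these data known, this comparison is a description only. The exception was sams-5. The 8 bound genes held 14 distinct summits among the 9181 nuclear peaks of the authors' list thresholded by repeatability between replicates (IDR). These IDR-passing peaks all had the same rank in the list of both replicates pooled. Of the 9181, 8851 had a summit within 100 bp in both replicate lists, so a listed summit need not have repeated in each. The strongest summits of the 8 genes had a median signal of 331.9, against 235.6 for all bound coding genes. This median is the midpoint between 139.9 and 524, and none of the 8 genes had a strongest signal between those values. A summit shared by sams-3 and sams-4 counts for both in this median. With the window shortened to 1000 bp upstream, the medians were 230.3 and 222.1. The signal is the authors' value for each peak against a control library, and its scale belongs to the list it comes from. Of the 8, 4 genes, namely pmt-1, metr-1, mtrr-1 and sams-1, had strongest signals from 524 to 1150, above those of 80.9% to 96.4% of bound coding genes. The other 4 bound genes, pmt-2, mmcm-1, sams-3 and sams-4, had 78.14 to 139.9, above only 1.51% to 26.5% of them. None of the 14 summits had a signal between 139.9 and 320.7, a range that held 35.8% of all nuclear summits. This range was set by neighbouring signals among the 14, so it holds none of them by construction. Outside the windows, summits of 203.7 and 217.6 were nearest to a pmt-1 start. At least 2 summits lay in the windows of 4 of the 9 genes, against 9.08% of all coding genes.

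How many of the 9 genes were called bound depended on the peaks and starts used, and so did the share of all coding genes. With the window shortened to 1000 bp on the upstream side, 6 of 9 were bound, against 26.7%, and with 500 bp upstream and 200 bp downstream 4 of 9 were, against 21.3%. The genes left with the shortest window were sams-1, sams-3, pmt-1 and pmt-2. Counting each summit only to the nearest start gave 7 of 9, against 24.2%, and using only the most upstream start of each gene gave 8 of 9, against 30.5%. With the peaks at or above the median signal 4 of 9 remained, against 18.2%, and with all peaks of the pooled list, background included, 9 of 9 were bound, against 50.4%. As many of the strongest peaks of replicate 2 alone as the IDR-passing list holds bound 6 of 9, against 31.9%, and those of replicate 1 alone 6 of 9, against 31.1%.

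**Figure D1:**
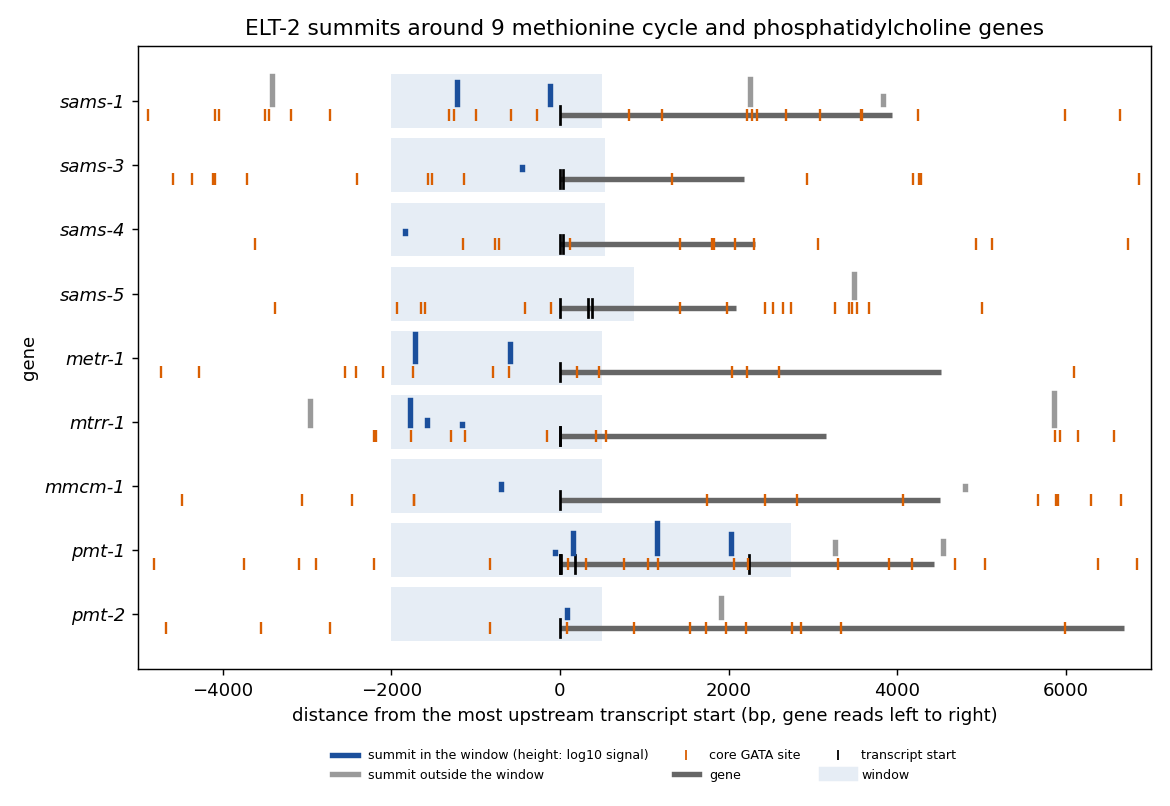
Summits (vertical bars, height by log10 signal), core GATA sites (TGATAA) and transcript starts of the 9 genes, with distance in bp from the most upstream start on the horizontal axis and 1 gene per row. Blue bars are the summits inside the shaded window and grey bars those outside it, drawn from 5000 bp upstream to 7000 bp downstream, so grey bars can belong to neighbouring genes; sams-5 has none in its window and pmt-1 has 4.

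The S-adenosylmethionine synthetase genes differed among themselves, from a pair of strong summits at sams-1 to none at sams-5. At sams-1 (WBGene00008205, chromosome X, 11965962 to 11969893, plus strand) a distal summit lay at 11964739, 1223 bp upstream of its only annotated start, in intergenic sequence. Its signal was 524 in the pooled list, 216.4 in replicate 1 and 307.9 in replicate 2, at ranks 1491, 1578 and 1421. A proximal summit at 11965844, 118 bp upstream, had signals of 391.9, 172.9 and 222.9 at ranks 2241, 2143 and 2309. Both replicates placed the distal summit above the proximal one. The sams-1 locus also held strong summits that the window left out. One lay in an intron of sams-1, 2252 bp downstream of the start, with a signal of 735.5 and 3 TGATAA sites within 100 bp. Another, 3414 bp upstream with a signal of 897.4, was nearest to the start of C49F5.13, and a weaker summit of 146.2 lay in the 3' UTR of sams-1. The intronic summit was thus stronger than either summit in the sams-1 window.

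The neighbours sams-3 (WBGene00015538, chromosome IV, 5848657 to 5850843, plus strand) and sams-4 (WBGene00015540, 5844061 to 5846369, minus strand) are transcribed away from each other, with 2288 bp between their outermost starts. They shared 1 weak summit at 5848207, 450 bp upstream of sams-3 and 1838 bp upstream of sams-4, whose nearest start was that of sams-3. The signals were 78.14 in the pooled list, 33.71 in replicate 1 and 44.5 in replicate 2. Its pooled rank of 8969 was close to the end of the IDR-passing list, and its ranks of 9221 and 9226 in the replicates fell just beyond the 9198 strongest peaks of each. Without either replicate, neither gene was bound, and with each summit counted only to the nearest start, sams-4 was not bound. At sams-5 (WBGene00006416, chromosome IV, 6277433 to 6279522, minus strand) the closest IDR-passing summit, of signal 546.9, lay 3105 bp downstream of a start and beyond the end of the gene, 44 bp upstream of T13A10.1. In the pooled list with background, the sams-5 window held a single summit, 954 bp upstream, with a signal of 14.84 at rank 29280 of 30000. Neither replicate's list had a summit in that window. The windows of the sams genes were mostly unique in sequence: words of 32 bases that occur again in the nuclear genome made up 0% of the sams-1 window, 4.92% of that of sams-3, 0.240% of that of sams-4 and 1.37% of that of sams-5.

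The genes of vitamin B12-dependent reactions included strongly and weakly bound ones. Methionine synthase, metr-1 (WBGene00010988, chromosome II, 10926561 to 10931078, plus strand), had 2 intergenic summits. The stronger lay at 10924848, 1713 bp upstream, with signals of 828.2 in the pooled list, 339.1 in replicate 1 and 487.6 in replicate 2, at ranks 602, 714 and 551. The coding start nearest to this summit was not that of metr-1 but that of Y19D2B.2, 600 bp away on the downstream side, and the window of Y19D2B.1 held it too, 1874 bp upstream. The other summit, 596 bp upstream and nearest to metr-1, had signals of 320.7, 116.9 and 200.8 at ranks 2893, 3387 and 2661.

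The methionine synthase reductase gene mtrr-1 (WBGene00006510, chromosome II, 9285975 to 9289132, plus strand), whose product reactivates methionine synthase, had all of its 3 summits more than 1000 bp upstream. The strongest, at 9284202 and 1773 bp upstream, had signals of 659.1 in the pooled list, 313.1 in replicate 1 and 343.6 in replicate 2, at ranks 975, 825 and 1171. The next, 200 bp closer to the gene in the same deposited interval (9283973 to 9284411), had 106.3, 81.91 and 67.23. The last, 1158 bp upstream, was among the weakest of the list at 75.76, 33.92 and 61.89. The coding start nearest to all 3 was that of mtrr-1. A strong summit of 638.2, without TGATAA within 100 bp, lay beyond the window, 2961 bp upstream of mtrr-1 and 2916 bp upstream of gldi-3. Just below the IDR-passing list, the pooled list had a summit 376 bp downstream of the mtrr-1 start, with a signal of 71.61 at rank 9449.

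Methylmalonyl-CoA mutase, mmcm-1 (WBGene00014202, chromosome III, 3903185 to 3907687, minus strand), which uses vitamin B12 to break down propionate, was bound weakly. Its single summit at 3908383, 696 bp upstream, had signals of 109.2 in the pooled list, 45.31 in replicate 1 and 65.58 in replicate 2. The ranks of 7339, 7529 and 7342 agreed closely, and no other IDR-passing summit lay within 5000 bp of it.

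The phosphoethanolamine methyltransferase genes held the strongest summit of the 9 genes, at pmt-1, and a weak one at pmt-2. At pmt-1 (WBGene00022781, chromosome II, 5278090 to 5282523, minus strand), which has 5 annotated starts and a window of 4745 bp against a median of 2501 bp, 4 summits were counted, and 0.516% of coding genes had 4 or more. The strongest, at 5281371, had signals of 1150 in the pooled list, 487.8 in replicate 1 and 665.6 in replicate 2, at ranks 266, 296 and 238. It lay in an intron, 976 bp downstream of the nearest start, and was counted because it is 1092 bp upstream of the most downstream start. A summit 217 bp upstream of that downstream start, also intronic, had signals of 418.5, 145.7 and 269.6. Near the upstream starts, an intronic summit at 5282374, 27 bp upstream of a start, had 439.3, 191.7 and 252.8. A weak summit 202 bp from it had 80.53 in the pooled list and 62.42 in replicate 2, and no match within 100 bp in replicate 1. With the most upstream start alone, pmt-1 kept 2 of its 4 summits, and the strongest was not among them. A further intronic summit of 203.7 lay 1017 bp downstream of the most downstream start, outside the window.

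At pmt-2 (WBGene00018811, chromosome V, 4628580 to 4635263, plus strand), whose product completes the methylations that PMT-1 begins, the only summit of the window lay at 4628658, 78 bp downstream of the start in the 5' UTR. Its signals were 139.9 in the pooled list, 49.64 in replicate 1 and 86.66 in replicate 2, at ranks 6189, 7068 and 6027. A stronger summit of 419.7, with 1 TGATAA within 100 bp, lay in an intron of pmt-2, 1909 bp downstream of the start and outside the window. At both pmt genes the strongest summit of the locus was intronic.

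**Figure D2:**
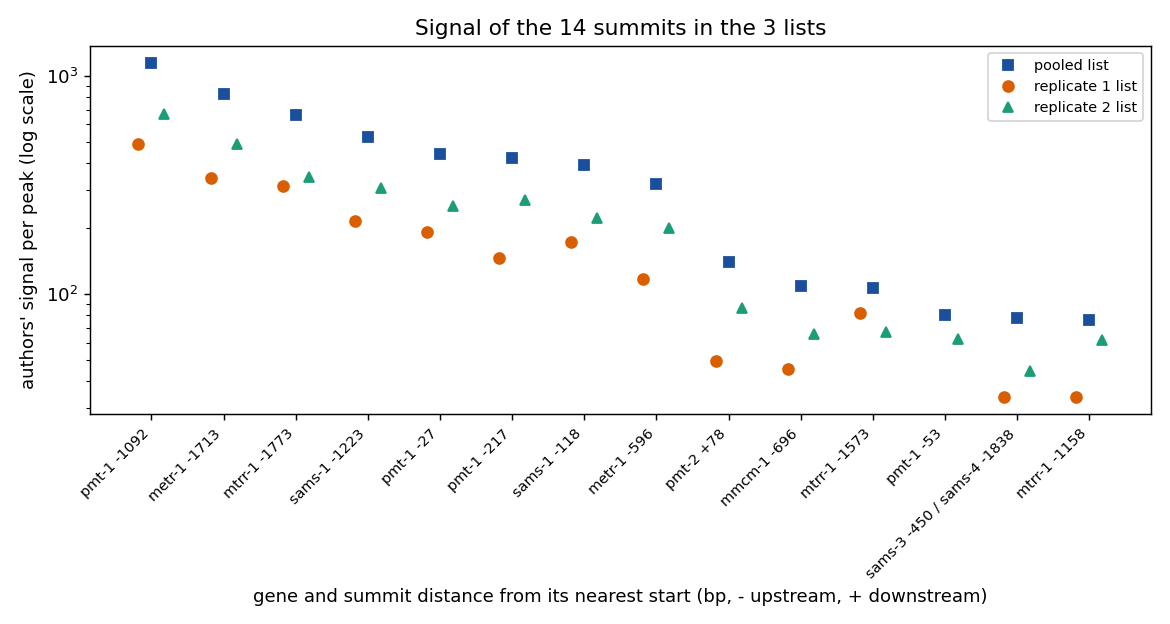
The authors' signal (log scale) of the 14 summits in the pooled list (squares), replicate 1 (circles) and replicate 2 (triangles), ordered by pooled signal and labelled by gene and distance from its nearest start in bp. The 8 strongest lie at 320.7 or above and the other 6 at 139.9 or below in the pooled list, and replicate 1 has no point for the pmt-1 summit 53 bp upstream.

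Of the 14 summits, 13 had a summit within 100 bp in both replicate lists, against 96.4% of all nuclear summits, and the summit positions differed from the pooled ones by 0 to 39 bp. The log2 ratio of the signal in replicate 2 to that in replicate 1 had a median of 0.51 over these 13 summits and of 0.45 over the 8851 nuclear summits matched in both. It lay within the central 90% of all matched summits (-0.27 to 1.24) for 12 of the 13. The exception was the mtrr-1 summit 1573 bp upstream, at -0.28, the only one of the 13 with a higher signal in replicate 1. It ranked 4765 in replicate 1 and 7219 in replicate 2, and the mtrr-1 summit 1158 bp upstream ranked 9182 and 7599. With 2 samples of 1 group, no test between samples was possible.

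TGATAA on either strand lay within 100 bp of 9 of the 14 summits, against 53.9% of all nuclear summits, 18.7% of stretches of the same length centred 500 bp to either side of the summits and 17.9% of all such stretches of the nuclear genome. The share among the 14 was 64.3%, close to that of all summits. Of the 8 summits above the median signal of all nuclear summits (203.5), 7 had the site. These 8 all had 320.7 or more, and of the 6 weaker ones 2 had the site. Over all nuclear summits the share was 66.4% at or above the median signal and 41.3% below it. The closest TGATAA had its centre a median of 23.5 bp from the summit at these genes and 25.5 bp at all nuclear summits with a site.

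Summit positions, and so these distances, may be off by 1 bp, because the lists do not say whether the deposited offset counts from 0 or from 1. At the strongest summit of pmt-1 the centre of the site was 11.5 bp downstream of the summit, and at that of mtrr-1 it was 12.5 bp downstream. At pmt-2 it was 1.5 bp from the summit, although this summit was weak. The distal summit of sams-1 had 2 TGATAA sites, 35.5 and 88.5 bp upstream of it, and a TGATAG within 0.5 bp of it. The proximal summit of sams-1 was the single strong summit without TGATAA. It had 2 AGATAA and 1 AGATAG sites, the closest 1.5 bp from the summit, as the printed sequence shows. The mmcm-1 summit likewise had AGATAA, 10.5 bp away, and AGATAG but no TGATAA. Counting AGATAA as well as AGATAG, besides TGATAA together with TGATAG, 12 of the 14 summits had a site (85.7%), against 69.6% of all nuclear summits, 36.9% of the flanking stretches and 35.7% of all stretches of the genome. The summit shared by sams-3 and sams-4 and the mtrr-1 summit 1573 bp upstream had none.

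**Figure D3:**
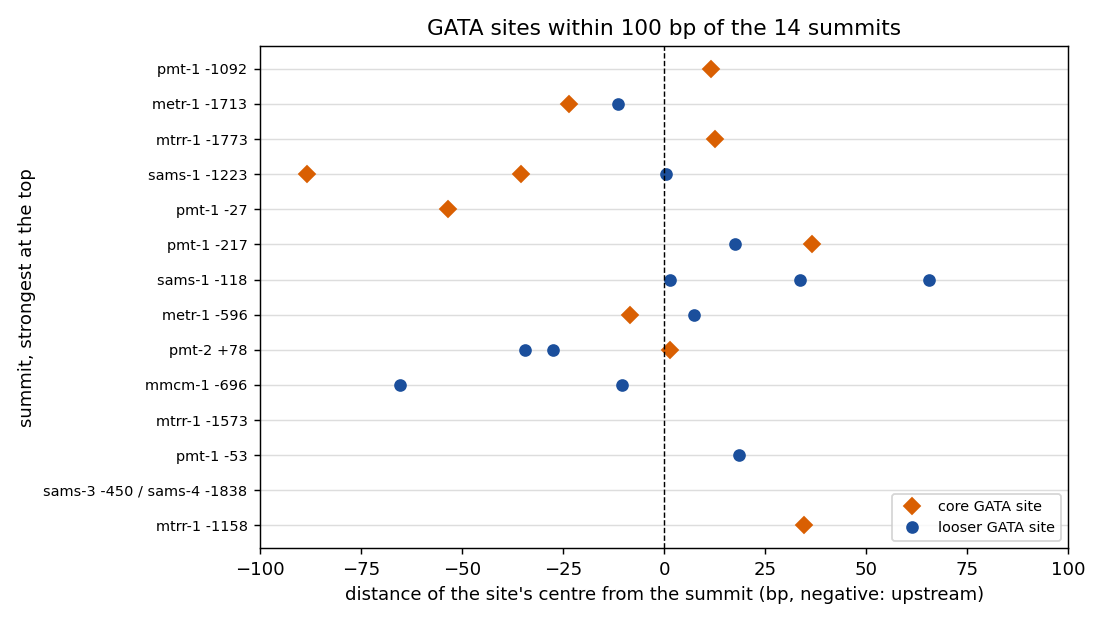
Position of GATA sites within 100 bp of each of the 14 summits, with the distance of the site's centre from the summit in bp on the horizontal axis (negative values upstream on the coding strand) and summits ordered by signal from the top. Diamonds are the core site TGATAA, present at 9 summits, and circles are the looser sites AGATAA as well as AGATAG, together with TGATAG; 2 summits have neither.

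The core site also occurred in these windows without an IDR-passing summit. The 9 windows held 36 distinct TGATAA sites, from 2 at mmcm-1 and pmt-2 to 8 at pmt-1, with 3 sites lying in the windows of both sams-3 and sams-4. Per kb of window, the genes ranged from 0.800 to 2.00 sites, against a median of 1.07 over all coding genes and 1.20 over bound ones. In the windows of the 8 bound genes, 10 of 31 distinct sites (32.3%) lay within 100 bp of a summit, against 26.6% of the distinct sites in the windows of all bound coding genes. The unbound sams-5 had 5 sites in its window, as many as sams-1, metr-1 and mtrr-1. None of the 4 distinct sites in the windows of sams-3 and sams-4 had an IDR-passing summit within 100 bp. The pooled list with background had weak summits near them. A summit of signal 19.62 had 2 TGATAA within 100 bp, and those of 20.88 and 26.26 had 1 each.

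Other genes of these pathways were described with 4 lists, of which 32 of 44 genes were bound (72.7%, against 32.1% of all coding genes). The lists follow biochemical roles but were chosen with earlier results of these data known. In the list of other methionine cycle, transsulfuration and folate genes, 11 of 14 were bound, with a median strongest signal of 535.2. Its strongest summits were those of cth-2, a cystathionine gamma-lyase gene (1005, 1510 bp upstream), and mthf-1, the methylenetetrahydrofolate reductase gene that supplies the methyl group for methionine synthase (909.8, 316 bp downstream). The members without a summit were cbs-2, dhfr-1 and dao-3. The median of this list was above the 331.9 of the bound genes among the 9, which is only a midpoint between 139.9 and 524.

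Of the genes for vitamin B12 handling and propionate breakdown, 8 of 11 were bound, with a median of 273.6. The strongest summits were counted to cblc-1, which processes vitamin B12 (1055, 1867 bp upstream, although nearest to the start of mdt-4), and pccb-1, a propionyl-CoA carboxylase subunit gene (799.6, 413 bp upstream). Neither acdh-1, the acyl-CoA dehydrogenase gene of the propionate shunt, nor mmaa-1 or mmab-1 had a summit. Of other phospholipid synthesis genes, 9 of 15 were bound, with a median of 274.8. They were led by pcyt-1, whose product makes CDP-choline from phosphocholine (751.1, 224 bp upstream), and the ethanolamine phosphotransferase gene ept-1 (404.3, 807 bp upstream). The 6 without a summit were ckb-1, ckb-2, pcyt-2.2, cept-2, pssy-1 and pssy-2.

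All 4 regulators on the last list were bound. The nuclear receptor gene nhr-68, which acts in the response to low vitamin B12, had the strongest summit of any gene on these lists (1530, 370 bp upstream, nearest to the start of H12C20.7). The SREBP homologue sbp-1 had 3 summits, the strongest at 380.8 and 148 bp upstream. TGATAA lay within 100 bp of 37 of the 62 distinct summits of the 4 lists (59.7%), close to the 53.9% of all nuclear summits.

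**Figure D4:**
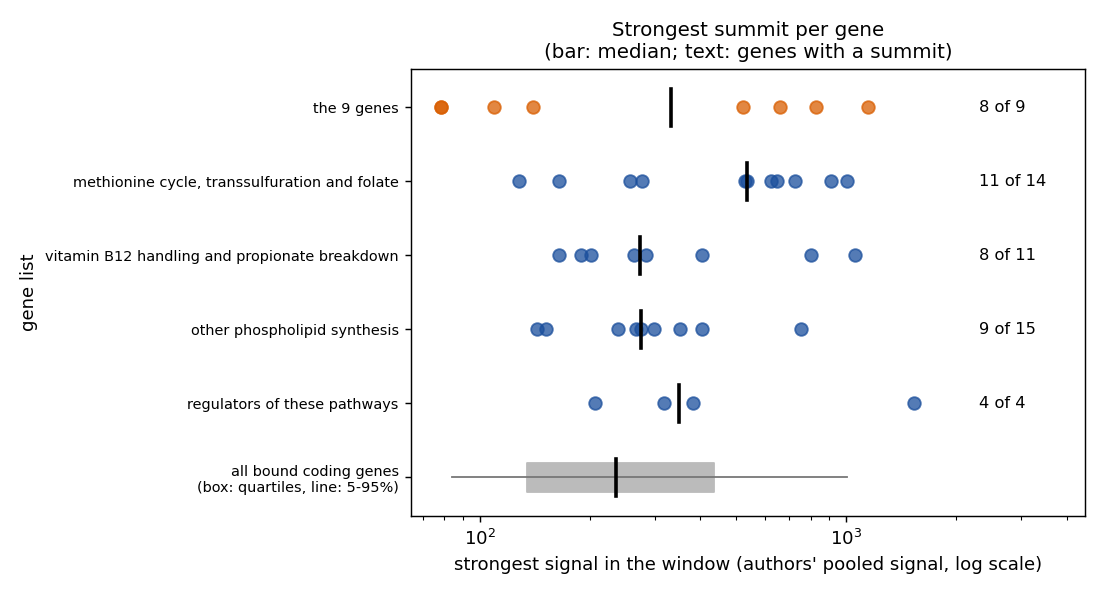
Strongest signal in the window (log scale) of each bound gene among the 9 genes (orange) and on the 4 other lists (blue), with the median as a black bar, the count of bound genes at the right, and the quartiles and the 5 to 95% range of all bound coding genes at the bottom. Of the 9 genes, 4 lie at 524 or above and 4 at 139.9 or below, and sams-5 has no summit and no point. The methionine cycle, transsulfuration and folate list has the highest median, 535.2.

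The strongest summit of pmt-1 was set beside those of other bound coding genes by the distance of their log10 signals in both replicate lists. The nearest were Y44A6C.1 (482.9 in replicate 1 and 667.3 in replicate 2, distance 0.00457) and pho-9 (493.4 and 665, distance 0.00493). Each of their summits also had 1 TGATAA within 100 bp. This likeness rests on 2 values per gene.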

How the data were processed

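Peak lists from ChIP-seq of tagged ELT-2 in 2 biological replicates were analysed. Per the deposited text files, the authors made, on ce11 and ce10, a list of peaks with background for each replicate and for both pooled, and 1 of peaks that passed IDR, with a control entering the peak calling. Peak heights are the authors' deposited signal, used only to describe, rank and filter peaks within a list. Which aligner, peak caller and IDR threshold were used is not given in the sources used here. Sequencing depth is unknown, because the lists hold no read counts, so no interval that needs it is given.

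The ce11 lists were used: 9198 IDR-passing peaks (17 mitochondrial ones left out), 30000 pooled peaks, 28033 of replicate 1 and 30000 of replicate 2. All 9181 nuclear IDR-passing summits had the same rank in the pooled list. The ce10 lists were not used here. Summits were the peak start plus the deposited offset, and coordinates count from 1. Genes came from Ensembl release 115 and sequence from RefSeq, both of WBcel235, the assembly of ce11. Replicate peaks were matched by summits within 100 bp. Motifs were searched on both strands within 100 bp of a summit.

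The members and lists were chosen with earlier results of these data known. Named genes were all members, the pair with the strongest summit on each other list, the genes sharing or nearest to a member summit in the window, and the pair most like the strongest member. Names of genes without a summit or near summits outside the windows were added after their values were seen. No test was run, since all samples form 1 group. Alternatives were other windows, starts, peak sets and matching rules. The steps were tested on simulated data. Python 3.11.15, numpy 2.4.6, pandas 2.3.3 and matplotlib 3.10.9 were used.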

Additional observations from a re-analysis of the deposited data

How the results depend on the processing

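The number of bound genes among the 9 was 6 to 9 under most alternatives. It fell to 4 with the shortest window, 500 bp before to 200 bp after a start (without sams-4, sams-5, metr-1, mtrr-1 and mmcm-1, against 21.3% of all coding genes) and to 4 with the peaks at or above the median signal (without sams-3, sams-4, sams-5, mmcm-1 and pmt-2, against 18.2%). A smaller window or peak set can only lower the count, and the share of all coding genes fell as well, from 32.1%. Without replicate 1 and without replicate 2 it was 6 each, as sams-3 and sams-4 were lost, and with all pooled peaks it was 9, against 50.4% of coding genes. The median strongest signal of 331.9 became 230.3 with 1000 bp upstream (222.1 over all bound genes), 743.6 with the peaks at or above the median signal (394.3), 139.9 with all pooled peaks (125.5), 325.7 without replicate 1 (139.1) and 264.8 without replicate 2 (100.7), where the last 2 are on the scale of the other replicate's list. The count of summits with TGATAA was 4 of 8 with 1000 bp upstream, against 53.9% of all summits. It was 7 of 8 with the peaks at or above the median signal (66.4%). Within 50 bp of the summit it was 8 of 14 (40.8%), and within 200 bp 12 of 14 (64.5%). Without replicate 1 it was 10 of 15 (53.6%), and without replicate 2 it was 9 of 12 (53.2%). With the looser sites counted too, 12 of 14 had a site (69.6%). The bound genes of the other lists numbered 25 to 39 of 44. There were 25 with the peaks at or above the median signal (18.2% of all coding genes) and with the shortest window (21.3%). With all pooled peaks there were 39 (50.4%). The matching of replicates gave 13 of 14 within 100 bp, and 14 of 14 within 200 bp or by any overlap of the peaks. The added match was not a separate peak. It joined the pmt-1 summit 53 bp upstream to the replicate 1 peak of rank 1885, which also matched the pmt-1 summit 27 bp upstream. Use of the most upstream start only, chosen after seeing the data, left 8 genes bound, with a median of 289.6. No paired analysis was possible because there was 1 group and no test. Depth is unknown, so how it limits weak summits such as that of sams-3 and sams-4 could not be assessed.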

Other observations

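No pair of nuclear IDR-passing summits lay closer than 199 bp. Of the 9181 summits, 1201 (13.1%) had their nearest other summit 200 to 219 bp away, against 152 at 180 to 199 bp and 79 at 220 to 239 bp. Among the 14 summits there were 2 such pairs. At mtrr-1 the summits 1773 and 1573 bp upstream were 200 bp apart, with signals of 659.1 and 106.3. At pmt-1 those 27 and 53 bp upstream of their starts were 202 bp apart, with 439.3 and 80.53. In both pairs the weaker summit had no TGATAA within 100 bp. Whether the weaker summits mark separate binding was not tested. In 154 cases, that of mtrr-1 included, both summits of a pair lay in 1 deposited interval.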
